A study of Homo sapiens with 2 samples.

Results

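The 10 WNT negative feedback genes AXIN1, AXIN2, RNF43, ZNRF3, NKD1, NKD2, DKK1, DKK4, LGR4 and LGR5 were taken by symbol from a table of 21115 genes, and all 10 symbols were found. They were measured by RNA sequencing of polyadenylated RNA from HCT116 cells. HCT116 is a human cell line from a colorectal carcinoma, grown here in McCoy's 5a medium with serum. One culture condition was 1 µM CB-5083 for 8 h and the other was its solvent DMSO for 8 h. CB-5083 is an inhibitor of p97, the ATPase that extracts ubiquitinated proteins from membranes and complexes. Each condition was 1 library of 1 cell line, so the spread between cultures is unknown and no p-value is given.

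WNT ligands act by stabilising beta-catenin, which then switches on target genes together with TCF/LEF transcription factors. Without a WNT signal, a destruction complex built on an axin scaffold marks beta-catenin for degradation. Several target genes encode brakes on the same pathway, so that a strong signal limits itself, and these genes are widely used as readouts of WNT activity. HCT116 cells carry an activating mutation of the beta-catenin gene and therefore have WNT target activity of their own. LGR4 and LGR5 are grouped with the feedback genes here, although their products enhance WNT signalling as receptors for R-spondins.

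The CB-5083 library held 31997655 estimated counts and the DMSO library 29273671. Levels are given as CPM, the share of a library's counts on a common scale, with a correction between libraries by the trimmed mean of M values (TMM). Where no count was seen, a floor of 3 counts was set, or 0.106 CPM with CB-5083 and 0.091 CPM with DMSO. Levels carry a 95% exact Poisson interval and folds and shares a 95% exact Clopper-Pearson one, both for counting error only. For 0 counts the Poisson interval reaches somewhat above the floor, to 0.130 CPM with CB-5083 and 0.112 CPM with DMSO. Of the 10 colon epithelial markers checked, 5 reached 5 CPM in a library (EPCAM, CDH1, KRT8, KRT18 and KRT19). CDX2 was at 2.92 CPM with CB-5083 and 3.76 CPM with DMSO, and KRT20 at 1.02 CPM and 1.37 CPM. VIL1 and CEACAM5 had at most 1 count in a library, and CEACAM6 was at 0 in both. The summed level of the 10 markers was 1671 CPM with CB-5083 and 1122 CPM with DMSO. Within that list CDH1, which encodes E-cadherin, was at 243 CPM with CB-5083 and 66.7 CPM with DMSO. None of 11 markers of other cell types reached 5 CPM, with a summed level of 8.77 CPM with CB-5083 and 7.40 CPM with DMSO. The highest was COL1A1, at 3.48 CPM with CB-5083 and 2.52 CPM with DMSO, in the range of CDX2. PTPRC, CD3E, COL1A2 and DCN were at 0 in both libraries. The part of these differences in the results below was not tested.

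Promoter windows from 250 bases before to 50 bases after the transcription start were matched for 5 members (AXIN1, RNF43, NKD2, DKK1 and LGR4) in the RefSeq table of build GRCh38.p14. The 3 below are shown because RNF43 and LGR4 were lower with CB-5083 and DKK1 was not. Each is written in lower case, 5′ to 3′ on the gene's own strand, and capitals mark a match to the forms of a core TCF/LEF motif named below.
RNF43, chr17:58417485-58417784, minus strand: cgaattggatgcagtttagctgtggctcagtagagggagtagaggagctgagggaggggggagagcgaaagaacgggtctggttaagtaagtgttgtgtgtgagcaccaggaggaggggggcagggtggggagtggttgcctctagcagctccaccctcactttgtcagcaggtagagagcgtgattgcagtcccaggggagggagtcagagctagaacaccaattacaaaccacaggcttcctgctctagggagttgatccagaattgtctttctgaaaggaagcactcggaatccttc
LGR4, chr11:27472741-27473040, minus strand: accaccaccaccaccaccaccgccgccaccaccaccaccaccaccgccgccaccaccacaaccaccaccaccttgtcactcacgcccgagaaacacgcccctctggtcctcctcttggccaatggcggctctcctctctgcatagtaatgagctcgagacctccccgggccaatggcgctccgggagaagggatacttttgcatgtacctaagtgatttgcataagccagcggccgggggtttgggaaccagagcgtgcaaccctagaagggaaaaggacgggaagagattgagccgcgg
DKK1, chr10:52314031-52314330, plus strand: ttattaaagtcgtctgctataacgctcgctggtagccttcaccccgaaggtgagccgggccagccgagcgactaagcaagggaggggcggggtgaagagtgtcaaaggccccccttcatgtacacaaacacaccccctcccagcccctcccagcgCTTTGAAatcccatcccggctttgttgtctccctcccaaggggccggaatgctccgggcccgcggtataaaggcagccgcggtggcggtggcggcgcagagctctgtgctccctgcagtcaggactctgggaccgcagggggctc

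The letters searched on both strands were CTTTGAT and CTTTGAA. Other forms of the motif were not searched, so lower case does not mean that none is present. Among 35116 promoter windows of 300 bases, 2.62% held CTTTGAT, 4.43% held CTTTGAA and 6.86% held either. Of the 5 matched members only DKK1 held a match, CTTTGAA on the plus strand beginning 95 bases before the start. A match describes these letters and is not evidence of binding. The RNF43 window had a GC content of 54.3% with 5 CpG dinucleotides, the LGR4 window 61.3% with 18 and the DKK1 window 63.7% with 20, against medians of 58.7% and 14 over all windows.

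Of the 10 members, 4 were at least 2-fold lower with CB-5083 and none was at least 2-fold higher. AXIN2, LGR4, RNF43 and ZNRF3 were the lower genes, at 23.2-fold, 5.99-fold, 3.23-fold and 2.98-fold. NKD1 was 1.62-fold lower and DKK1 1.44-fold higher, both short of the threshold. AXIN1 and NKD2 lay under the filter of 5 CPM in at least 1 library, DKK4 had no counts and LGR5 had 1 count in all. With CB-5083, 4.91% of the 9543 genes that passed the filter were at least 2-fold lower and 7.22% at least 2-fold higher. These were 469 and 689 genes. By library totals 994 genes (10.3% of 9623) were lower and 371 (3.86%) higher. With the authors' deposited log2 ratio instead, and the 5 CPM filter and 2-fold threshold kept, 722 were lower and 636 higher. AXIN2, LGR4, RNF43 and ZNRF3 stayed beyond 2-fold lower under both. At 4-fold 0.356% of genes were lower with CB-5083, among them 2 members, AXIN2 and LGR4. AXIN2, LGR4 and NKD1 passed the filter through the DMSO library alone, so the count describes these genes and is not support for a direction. In bulk RNA, fewer cells with a transcript and less of it per cell cannot be told apart.

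**Figure D1:**
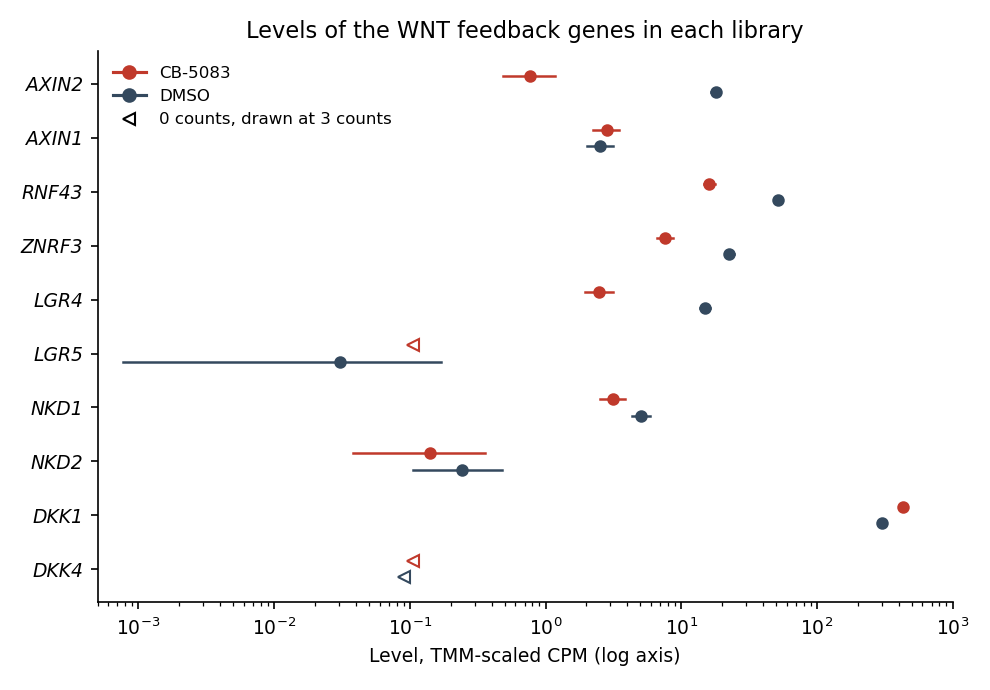
Level of each of the 10 genes in TMM-scaled CPM (log axis), CB-5083 in red above DMSO in dark blue, with 1 library per group and lines for the 95% exact Poisson interval of the counts; open triangles stand for 0 counts, drawn at 3 counts. AXIN2 shows the widest gap, at 0.774 CPM with CB-5083 and 17.97 CPM with DMSO, and DKK1 lies far above all others in both libraries.

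AXIN1 and AXIN2 encode the scaffolds of the destruction complex. AXIN2 is a direct beta-catenin target, whereas AXIN1 is the scaffold that most cells express without WNT input. AXIN2, at 17:63524683 to 63637183 in hg19, had 22 estimated counts with CB-5083 and 592 with DMSO. That is 0.774 CPM with CB-5083 (95% interval 0.485 to 1.17) and 17.97 CPM with DMSO (16.5 to 19.5), so the intervals of the libraries lie far apart. It was 23.2-fold lower with CB-5083 (15.2 to 37.3). On the log2 ratio of CPM with a pseudocount of 1, which understates low genes, AXIN2 was at -3.42, the lowest of the 9543 genes that passed the filter. Over 4 scalings and 3 pseudocounts its rank from the lowest ran from 1 to 8. The authors' deposited table gives a log2 ratio of -4.63 without a pseudocount. The gene range given in the files overlaps CEP112, a centrosomal protein gene at 10.3 CPM with CB-5083 and 9.50 CPM with DMSO, and how reads of the shared stretch were assigned to either gene is not stated in the labels.

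The other scaffold behaved differently. AXIN1, at 16:337440 to 402676, had 80 estimated counts with CB-5083 and 83 with DMSO, or 2.81 CPM (2.23 to 3.50) and 2.52 CPM (2.01 to 3.12). Its fold of 1.12 has an interval of 0.812 to 1.54, which includes 1, and its log2 ratio of 0.12 turned to -0.13 by library totals. A share inside a library does not depend on the scaling between libraries. AXIN2 held 21.6% of the counts of the AXIN pair with CB-5083 (95% exact interval 14.0% to 30.8%) and 87.7% with DMSO (85.0% to 90.1%). AXIN2 was thus the more counted scaffold gene with DMSO and the less counted one with CB-5083. The range of AXIN1 in the files, from its smallest start to its largest end, overlaps the range of LUC7L taken the same way. LUC7L, a splicing factor gene, was at 28.2 CPM with CB-5083 and 25.6 CPM with DMSO. Whether the transcripts themselves overlap was not tested.

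RNF43 and ZNRF3 encode membrane ubiquitin ligases that remove Frizzled receptors from the cell surface. RNF43, at 17:56431038 to 56494931, was at 16.1 CPM with CB-5083 (14.7 to 17.7) and 52.03 CPM with DMSO (49.6 to 54.6), a 3.23-fold lower level (2.91 to 3.59). ZNRF3, at 22:29279755 to 29453476, was at 7.61 CPM with CB-5083 (6.63 to 8.69) and 22.7 CPM with DMSO (21.1 to 24.3), a 2.98-fold lower level (2.56 to 3.48). Both were well separated between the libraries and differed by nearly the same factor. The ratio of the RNF43 fold to the ZNRF3 fold had an exact interval of 0.897 to 1.30 on rounded counts, which includes 1. RNF43 held 67.9% of the counts of the pair with CB-5083 (64.3% to 71.4%) and 69.7% with DMSO (67.8% to 71.5%), so the intervals of the 2 shares overlap.

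**Figure D2:**
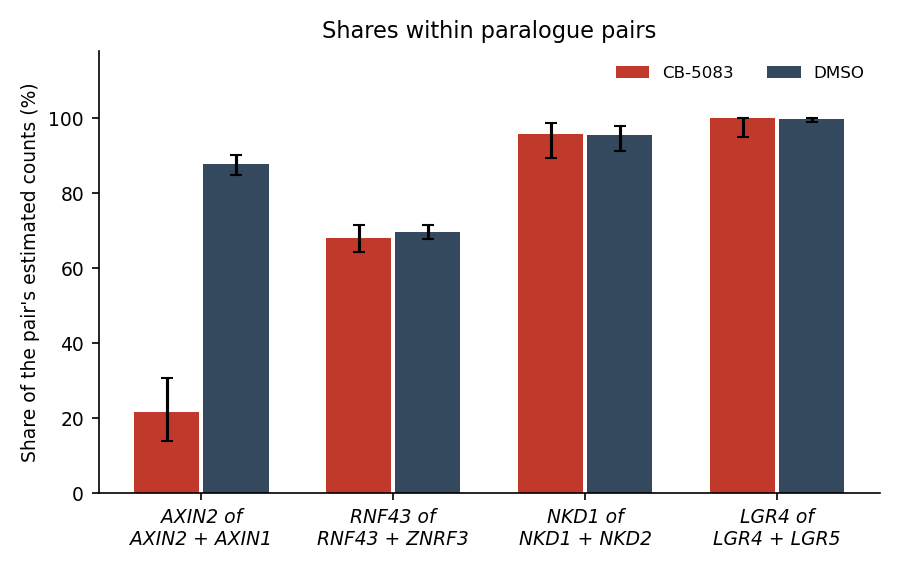
Share of each paralogue pair's estimated counts held by the first-named gene, in percent, CB-5083 in red left of DMSO in dark blue, with bars for the 95% exact binomial interval. The AXIN2 share was 21.6% with CB-5083 and 87.7% with DMSO, while the RNF43 share was 67.9% with CB-5083 and 69.7% with DMSO.

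LGR4 and LGR5 encode receptors that, bound to R-spondins, take RNF43 and ZNRF3 out of action. LGR4, at 11:27387508 to 27494334, had 71 estimated counts with CB-5083 and 493 with DMSO. It was at 2.50 CPM with CB-5083 (1.95 to 3.15) and 14.96 CPM with DMSO (13.7 to 16.3), a 5.99-fold lower level (4.66 to 7.79). Its log2 ratio of -2.19 had rank 25 from the lowest among genes that passed the filter, and the authors' deposited table gives -2.67. LGR5, a stem cell marker of the intestinal crypt and a WNT target, had 0 counts with CB-5083 and 1 with DMSO. Both values are under the floor of 3 counts, so no fold is given. LGR4 held all of the pair's 71 counts with CB-5083 and 99.8% of its 494 counts with DMSO. The matched R-spondins were also close to the floor. RSPO1 was at 0 in both libraries, RSPO2 at 3 counts with CB-5083 and 0 with DMSO, and RSPO4 at 0 with CB-5083 and 4 with DMSO. RSPO3 was not matched, so its level is unknown.

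NKD1 and NKD2 encode cytoplasmic proteins that bind Dishevelled and dampen the WNT signal. NKD1, at 16:50582241 to 50674771, had 89.0 estimated counts with CB-5083 and 166.8 with DMSO. That is 3.13 CPM with CB-5083 (2.52 to 3.85) and 5.06 CPM with DMSO (4.32 to 5.89), just above the 5 CPM filter in 1 library. It was 1.62-fold lower (1.24 to 2.11), an interval that excludes 1 and includes 2. NKD2, at 5:1009168 to 1038925, had 4 counts with CB-5083 and 8 with DMSO, or 0.141 CPM and 0.243 CPM. Its fold of 0.58 has an interval of 0.128 to 2.16, so no difference was detectable at this depth. NKD1 held 95.7% of the pair's counts with CB-5083 and 95.4% with DMSO.

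DKK1 and DKK4 encode secreted antagonists that bind the co-receptors LRP5 and LRP6. DKK1, at 10:54074041 to 54077417, was the most counted member, with 432 CPM with CB-5083 (424 to 440) and 301 CPM with DMSO (295 to 307). It was 1.44-fold higher with CB-5083 (1.40 to 1.48), and it was the only member with at least 5 CPM whose level was higher. Its log2 ratio of 0.52 was 0.18 by library totals, a scaling that moved the median of all genes that passed the filter by -0.33. DKK4, at 8:42231586 to 42234674, had 0 counts in both libraries. DKK1 alone held 92.9% of the counts of all 10 members with CB-5083 (92.4% to 93.3%) and 72.3% with DMSO (71.5% to 73.0%). The summed level of the 10 members was 465 CPM with CB-5083 and 416 CPM with DMSO, an order that turned by library totals, with 413 CPM with CB-5083 and 469 CPM with DMSO. Without DKK1 the TMM-scaled sum was 33.1 CPM with CB-5083 and 115.5 CPM with DMSO. The sum of the other 9 was 3.49-fold lower (3.25 to 3.75). Leaving out the only member with at least 5 CPM that was higher moves the sum towards lower. It describes these counts and is not support for a direction.

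**Figure D3:**
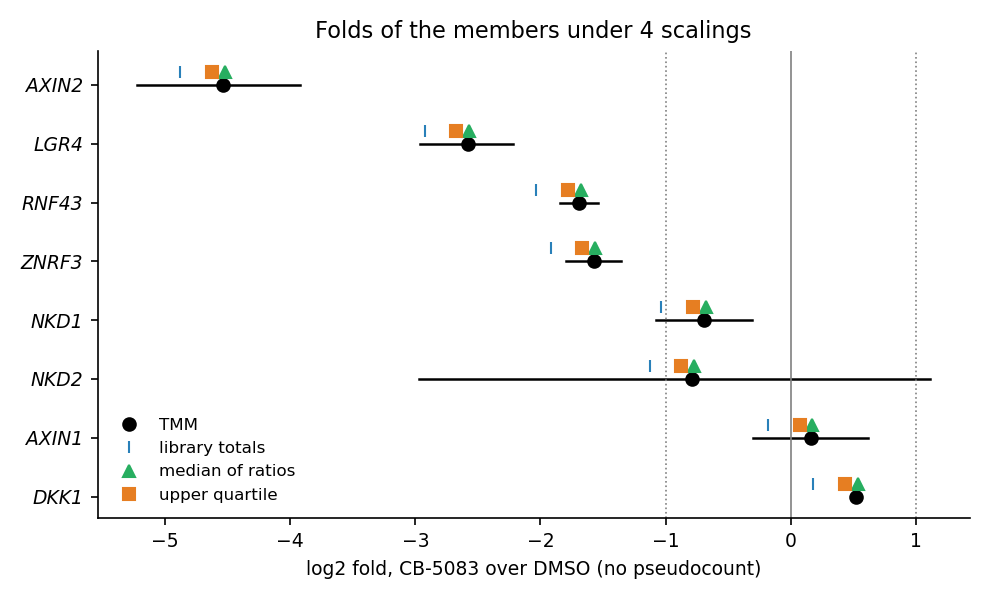
The log2 fold of CB-5083 over DMSO, without a pseudocount, for the 8 members with counts in both libraries; black points and lines give the TMM value with its 95% counting interval, coloured marks the other scalings, and dotted lines 2-fold. AXIN2, LGR4, RNF43 and ZNRF3 lie beyond 2-fold lower under all 4 scalings, whereas AXIN1 lies on either side of 0 depending on the scaling.

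Among the lower members, AXIN2's fold was 3.87 times that of LGR4 (exact interval 2.33 to 6.66), and LGR4's was 1.85 times that of RNF43 (1.41 to 2.46). RNF43 and ZNRF3 could not be ordered, as given above. ZNRF3's fold was 1.84 times that of NKD1 (1.35 to 2.51). These intervals compare genes within the same pair of libraries and cover counting error only.

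Levels of different genes were compared per kilobase of transcript, for the 8 members whose GENCODE transcript spanned as much genome as the model in the files, to within 2%. NKD1 and DKK4 were left out for that reason. With CB-5083 the levels in CPM per kb were 241 for DKK1, 2.92 for RNF43, 1.11 for ZNRF3, 0.773 for AXIN1, 0.480 for LGR4, 0.182 for AXIN2 and 0.065 for NKD2. With DMSO they were 168 for DKK1, 9.43 for RNF43, 4.22 for AXIN2, 3.31 for ZNRF3, 2.87 for LGR4, 0.691 for AXIN1 and 0.113 for NKD2. AXIN2 thus stood below AXIN1 and LGR4 with CB-5083, and above both with DMSO. The neighbours AXIN2 and NKD2 had overlapping counting intervals with CB-5083 (0.114 to 0.275 and 0.018 to 0.167), as did ZNRF3 and LGR4 with DMSO (3.07 to 3.55 and 2.63 to 3.14). LGR5 came last, at 0 with CB-5083 and 0.007 with DMSO, and its interval overlapped that of NKD2 with CB-5083. No other neighbours overlapped in either library.

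**Figure D4:**
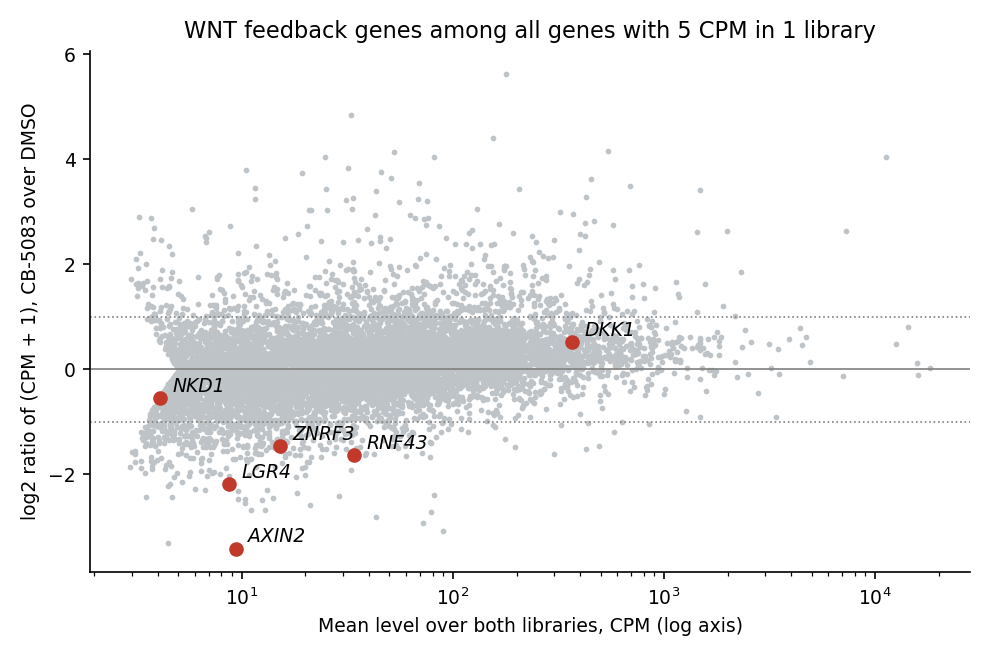
The log2 ratio of (CPM + 1), CB-5083 over DMSO, against the mean level in CPM (log axis) for 9543 genes with at least 5 CPM in 1 library (grey), with the 6 members that passed that filter in red; dotted lines mark 2-fold. AXIN2 lies at the lower edge of all genes at -3.42, LGR4 at -2.19, RNF43 at -1.63, ZNRF3 at -1.46, NKD1 at -0.55 and DKK1 at 0.52.

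The 3 genes with the log2 ratio nearest to that of AXIN2 over the 2 libraries were AJ420422, CYP24A1 and WNT16. AJ420422, a transcript without a gene name in the files, was at 0 CPM with CB-5083 and 8.94 CPM with DMSO. CYP24A1, the vitamin D 24-hydroxylase, was at 18.05 CPM with CB-5083 and 160.8 CPM with DMSO, 8.91-fold lower (8.14 to 9.77). WNT16, a WNT ligand gene, was at 15.9 CPM with CB-5083 and 128 CPM with DMSO, 8.08-fold lower (7.33 to 8.92). Because AXIN2 had the lowest log2 ratio of all, its nearest genes were by construction those at ranks 2 to 4 from the lowest. By fold AXIN2, at 23.2-fold lower, lay further from CYP24A1 and WNT16, since the pseudocount understates low genes. With 1 library per group each of these values rests on a single difference.

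Genes at other levels of the pathway were counted from 5 lists. Of the genes called in them, AMER1, FZD4, FZD1 and EPHB2 passed the filter through the DMSO library alone, and JUN through the CB-5083 library alone. The counts therefore describe the listed genes and are not support for a direction. The median log2 ratio of the 7 feedback genes with a mean of at least 1 CPM was -1.46, and 5 of them were below 0. Over all 11964 genes at that level the median was 0.04 and 5664 were below 0. By library totals these medians were -1.77 and -0.27.

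In the destruction complex list 14 of 15 genes passed the filter, and 1 was lower, 1 higher and 12 neither, with a median of 0.30 that turned to -0.03 by library totals. CTNNB1, which encodes beta-catenin itself, was at 415 CPM with CB-5083 and 393 CPM with DMSO (1.06-fold, 1.03 to 1.08). The direction of CTNNB1 turned with the scaling, with a log2 ratio of 0.08 by TMM and -0.26 by library totals, while the authors' deposited table gives -0.01. AMER1, a membrane-bound partner of APC listed as FAM123B, was at 1.30 CPM with CB-5083 and 6.65 CPM with DMSO (5.10-fold lower, 3.59 to 7.44). CSNK1A1, the kinase that primes beta-catenin for degradation, was at 463 CPM with CB-5083 and 221 CPM with DMSO (2.10-fold higher, 2.04 to 2.16). By library totals CSNK1A1 was short of the threshold, with a log2 ratio of 0.72. SIAH1, a ubiquitin ligase with a part in beta-catenin turnover, was 1.88-fold higher (1.74 to 2.04), short of the threshold.

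Of 14 TCF/LEF factors and cofactors 9 passed the filter, and 1 was lower, none higher and 8 neither, with all 11 measured members below 0 and a median of -0.62. TCF7L2, the main TCF of colon epithelium, was at 71.6 CPM with CB-5083 and 164.6 CPM with DMSO (2.30-fold lower, 2.18 to 2.42). TCF7 was 1.85-fold lower (1.62 to 2.13) and BCL9, a beta-catenin coactivator, 1.79-fold lower (1.59 to 2.03). LEF1 was at 0 in both libraries. By library totals the median was -0.91, with 3 genes lower.

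Among WNT receptors and transducers, 20 of 22 listed genes were matched and 10 passed the filter, of which 2 were lower, none higher and 8 neither (median -0.48). By library totals the median was -0.81 and 4 genes were lower, and 4 were lower too by upper quartile scaling and by the authors' deposited log2 ratio. FZD4 was at 2.78 CPM with CB-5083 and 14.5 CPM with DMSO (5.22-fold lower, 4.11 to 6.72), and FZD1 at 3.48 CPM with CB-5083 and 9.01 CPM with DMSO (2.59-fold lower, 2.05 to 3.28). FZD3 was 1.99-fold lower (1.81 to 2.20). FZD6, the most counted Frizzled gene, was at 123.9 CPM with CB-5083 and 92.5 CPM with DMSO (1.34-fold, 1.28 to 1.41). FZD6 was the only Frizzled gene with at least 5 CPM that was higher, and its log2 ratio of 0.42 was 0.08 by library totals. FZD7 and FZD5, singled out after their values were seen, were 2.04-fold (1.72 to 2.44) and 1.42-fold (1.26 to 1.59) lower. Both were short of the threshold on log2 of (CPM + 1). The Frizzled genes thus differed in size, and in direction through FZD6 alone.

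Of 18 other WNT inhibitors 16 were matched and only 3 passed the filter, of which 1 was lower and 2 neither. KREMEN1, a co-receptor for DKK1, was at 5.73 CPM with CB-5083 and 15.1 CPM with DMSO (2.63-fold lower, 2.20 to 3.16). TPBG, a membrane inhibitor of WNT signalling, was 1.53-fold lower (1.37 to 1.71). FRZB, a secreted Frizzled-related protein, was under the filter at 0.352 CPM with CB-5083 and 1.70 CPM with DMSO.

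Among 20 other beta-catenin targets 11 passed the filter, and 4 were lower, 2 higher and 5 neither. BMP4, a secreted morphogen, was at 5.28 CPM with CB-5083 and 36.5 CPM with DMSO, the lowest log2 ratio of (CPM + 1) in the list. Without a pseudocount TNFRSF19, a TNF receptor family gene under the filter at 0.141 CPM with CB-5083 and 1.91 CPM with DMSO, was lower still by fold, at 13.6-fold (5.05 to 51.4) against 6.92-fold for BMP4. TNFRSF19 was singled out after its values were seen, and so was CLDN1, which went the other way. Also under the filter, CLDN1 had 35 estimated counts with CB-5083 and 2 with DMSO, the latter below the floor of 3 counts. By fold it was 20.3-fold higher (5.21 to 174). The other lower genes, SOX9, EPHB2 and CCND1, were singled out after their values were seen, with folds of 2.48 (2.33 to 2.64), 3.21 (2.36 to 4.41) and 2.29 (2.24 to 2.34) in the lower direction. JUN and FOSL1, which encode AP-1 subunits and also respond to stress and growth signals, were 10.1-fold (8.39 to 12.2) and 3.04-fold (2.84 to 3.26) higher. CD44, the most counted, was 1.27-fold lower (1.24 to 1.29). The other genes short of the threshold went both ways. BIRC5 was 1.79-fold lower, while MYC, ETS2 and PPARD were 1.35-fold, 1.67-fold and 1.34-fold higher.

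**Figure D5:**
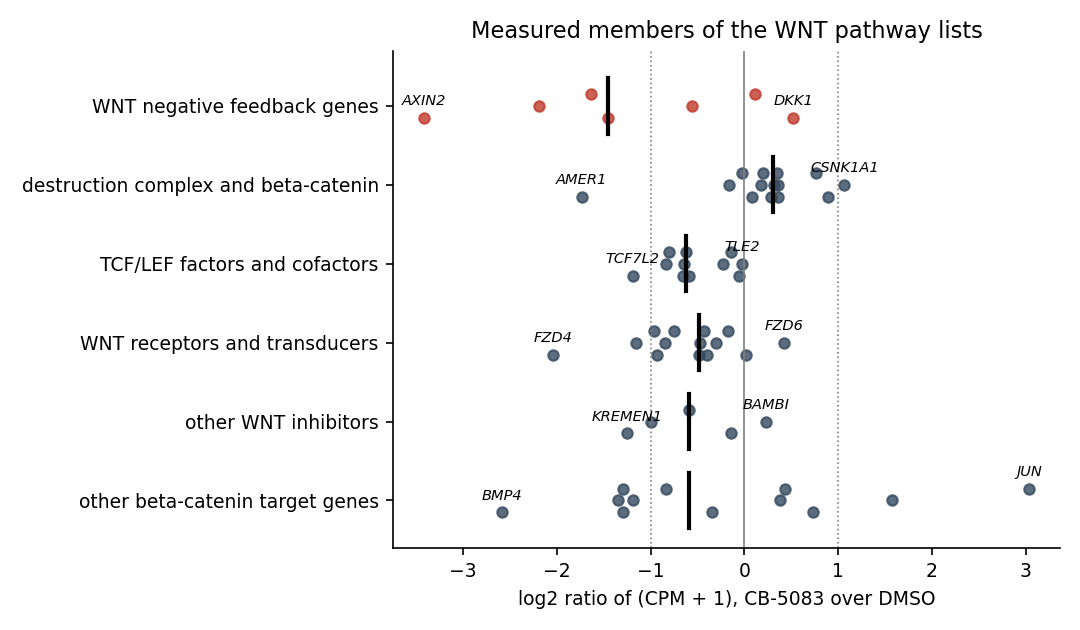
The log2 ratio of (CPM + 1), CB-5083 over DMSO, of every measured gene (mean of at least 1 CPM) in the feedback list (red) and 5 other WNT pathway lists (dark blue), with black bars for list medians and dotted lines at 2-fold. The feedback genes have a median of -1.46 and run from -3.42 for AXIN2 to 0.52 for DKK1, and the other target genes run from -2.58 for BMP4 to 3.04 for JUN.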

How the data were processed

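Polyadenylated RNA was sequenced from HCT116 cells, 1 library per treatment. Per the submitters' processing notes, RSEM 1.2.0 and hg19 were used, with no aligner named in the labels. For each gene the authors deposited a signal scaled within each library to a 75th percentile near 1000, although the columns are named counts. The design had assumed unscaled estimated counts. Dividing by the size of 1 count (1.175 with CB-5083, 1.079 with DMSO) gave back estimated counts, of which 55.6% and 54.7% of values above 0 were whole within 0.02. The authors' deposited log2 ratio equals CB-5083 over DMSO without a pseudocount.

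CPM used TMM factors of 0.8883 for CB-5083 and 1.1258 for DMSO (trims of 30% and 5%). A gene was called at 2-fold on log2 of (CPM + 1) with at least 5 CPM in 1 library. Transcript lengths came from GENCODE 29. Coordinates are hg19 from the files, and promoters GRCh38.p14. Each gene range runs from the smallest start to the largest end listed for the gene, so overlaps are those of merged ranges. Members and lists were chosen with earlier results of these data known. Named genes were the members, the 3 genes of each list with the largest ratios by size, its most expressed gene, and the 3 genes nearest to AXIN2. On simulated libraries of 21115 genes, all 100 genes altered 4-fold were called, 0 of 100 altered 1.5-fold, and 0 of 9037 unaltered. The simulated counts held counting error only, and the altered genes had a mean of at least 10 CPM. The simulation therefore cannot give the rate of false calls from the spread between cultures, nor the calls for altered genes at lower levels. Python 3.11.15, numpy 2.4.6, pandas 2.3.3 and scipy 1.17.1 were used.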

Additional observations from a re-analysis of the deposited data

How the results depend on the processing

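Alternatives for the scaling, pseudocount, filter, fold threshold and source of the ratio were run 1 at a time, except that the authors' deposited log2 ratio changes the scaling and the pseudocount together. The feedback genes gave 4 lower and 0 higher under 9 of 10 alternatives, and 2 lower at 4-fold. Over the alternatives the log2 ratio ran from -4.63 to -1.99 for AXIN2, -2.67 to -1.41 for LGR4, -1.96 to -1.43 for RNF43, -1.77 to -1.13 for ZNRF3, -0.82 to -0.31 for NKD1 and 0.18 to 0.53 for DKK1. By library totals 0 destruction complex genes were higher, 3 TCF/LEF genes lower and 4 receptors lower. By upper quartile scaling and by the authors' deposited log2 ratio 0 destruction complex genes were higher and 4 receptors lower. With a pseudocount of 5 CPM 0 destruction complex genes, 1 receptor and 0 other inhibitors were lower. With a filter of 10 CPM 0 destruction complex genes and 1 receptor were lower, beside 316 of all genes. At 1.5-fold 3 of 14 destruction complex genes were higher, beside 1660 of all 9543 genes. Lower were 6 of 9 TCF/LEF genes, 4 of 10 receptors and 2 of 3 other inhibitors, beside 1195 of all 9543 genes. At 4-fold 0 destruction complex genes were lower and 0 higher, 0 TCF/LEF genes, 1 receptor and 0 other inhibitors were lower, and 1 other target was lower and 1 higher. Fewer or more genes past a stricter or looser threshold follow from its construction, and for the scalings the cause was not tested.

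Of the 9543 genes that passed the filter 469 (4.91%) were lower and 689 (7.22%) higher. By library totals 994 (10.3% of 9623) were lower and 371 (3.86%) higher, and by the authors' deposited log2 ratio 722 and 636. Out of the same 9543 genes, 198 were lower and 518 higher with a pseudocount of 5 CPM, and 1195 and 1660 at 1.5-fold. With a pseudocount of 0.1 CPM 578 were lower and 748 higher. By upper quartile scaling 584 of 9557 genes were lower and 584 higher, and by median of ratios 459 and 710 of 9533. With a filter of 10 CPM 316 were lower and 632 higher, and with no filter 652 and 751. At 4-fold 34 (0.356%) were lower and 115 higher. No paired analysis was possible because each treatment was 1 library. Depth limits NKD2, LGR5 and DKK4, with at most 8 counts in a library, and intervals cover counting error only, not the spread between cultures.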
